A study of Cavia porcellus with 30 samples.

Results

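The comparison described here was between the 24 h and 12 h time points of the high dose, 40 µM mercuric chloride, in cultured guinea pig renal proximal tubular epithelial cells. Its members were the 10 of 30 RNA-seq libraries whose labels gave the high dose, 5 at each time, and every transcript was tested directly between the 2 times. Vehicle libraries of the same time served as reference lines, so that each change could be placed as a move toward the vehicle level, past it or away from it.

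The cells were isolated from 6- to 8-week-old Hartley guinea pigs and kept in culture before exposure. The high-dose groups received 40 µM mercuric chloride for 12 h or 24 h, the low-dose groups 30 µM for the same times, and the vehicle groups Hepatocyte Maintenance Medium without mercury for the same times. Each of these 6 groups held 5 libraries. No source used here says whether the 5 libraries of a group came from separate animals or separate cultures, so all p-values measure the spread between these libraries, which may be technical.

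Proximal tubular cells line the first segment of the nephron and take back most of the filtered water, salt, glucose and amino acids. Mercuric ions bind strongly to thiol groups, enter these cells through transporters largely as conjugates of cysteine and glutathione, and the proximal tubule is the main site of mercury injury in the kidney. Cells meet such an insult with metal-binding metallothioneins, glutathione synthesis and heat shock proteins. The deposited tables name transcripts by Ensembl identifier only and do not pair them with genes, and 0 of 25824 identifiers matched the gene table at hand. Members of these pathways, and markers of the labelled cell type, could therefore not be looked up, and transcripts are described by how they moved. In bulk RNA, fewer cells of a type and less RNA per cell cannot be told apart.

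The 40 µM libraries held from 23464210 to 27114730 estimated counts at 12 h (24700895 ± 1467931, SD, n = 5) and from 24370900 to 30701551 at 24 h (26963870 ± 2680243). In these 10 libraries 22866 of the 25824 transcripts were counted at least once. For 13092 of them (57.3%) an estimate was not a whole number somewhere, a sign that reads were divided among similar transcripts, and their levels are uncertain to that degree. Replicate 5 at 24 h stood apart in the makeup of its counts, with 12.4% in its 10 most abundant transcripts, where the 4 others at 24 h had 9.48 to 10.2%. Without it, 6918 transcripts were called in place of the 7199 given next.

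Between 12 h and 24 h at 40 µM, 7199 of 16785 tested transcripts changed (42.9%) at a Benjamini-Hochberg adjusted p under 0.1 in edgeR, the threshold used throughout. Of all tested transcripts, 22.1% were higher at 24 h (3714) and 20.8% were lower (3485). Called log2 fold changes had a median size of 0.35, with quartiles of 0.23 and 0.58, so small changes made up most of the list. A change of at least 2-fold was called in 633 transcripts (3.77% of those tested), 250 of them higher and 383 lower at 24 h. On log2(TPM + 1), a scale that shrinks the changes of low transcripts, 258 were called at this size, and without a filter on low counts 1017.

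The largest changes were mostly falls. At least 4-fold changes were called in 83 falling and 24 rising transcripts, and at least 8-fold changes in 25 falling and 9 rising ones. The falling transcripts of at least 4-fold size had a median of 2.20 CPM (counts scaled to a common library total) at 12 h and 0.331 CPM at 24 h. In 75 of these 83 the CPM values of the 5 libraries at 12 h all lay above the 5 at 24 h, against 26.2% of all tested transcripts whose groups did not overlap in either direction. The rising transcripts of that size went from a median of 0.197 to 2.00 CPM, and the groups did not overlap in 13 of 24. None of the 9 rises of at least 8-fold had whole estimates throughout, so each shares reads with another transcript, and 1 of them averaged at least 50 counts per library. The falls of at least 4-fold had whole estimates in 47 of 83 cases.

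Transcripts seen at 12 h and lost by 24 h were found, and none in the reverse direction. In 20 transcripts every 12 h library held more than 3 counts and every 24 h library at most 3. In 0 transcripts was it the other way round. Of the 20, 3 were common enough to be tested and all 3 were called lower, and 8 were also at 3 counts or fewer in all 10 vehicle libraries. A pair of these transcripts had no count in any 24 h library. One averaged 2.55 CPM at 12 h, with 35 to 127 counts per library, and was at least 22.9-fold lower at 24 h against a floor of 3 counts per library. In vehicle it averaged 0.252 CPM at 12 h and 0.112 at 24 h, with up to 44 counts in a library. The other averaged 1.35 CPM at 12 h, with 11 to 73 counts, was at least 12.1-fold lower by the same floor, and had 0 counts in all vehicle libraries. Both have fractional estimates. These 20 transcripts were picked by their counts, which is a description and not a test.

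Against the vehicle level of the same time, most called transcripts were nearer to vehicle at 24 h than at 12 h or had crossed it. The gap is the log2 ratio of the mean CPM at 40 µM to the mean CPM in vehicle of that time. Of the 7199 called transcripts, 7160 could be placed, and 39 were left out because a group mean was under 0.1 CPM. Of these 7160, 3914 (54.7%) moved toward vehicle and stayed on the same side of it, 2711 (37.9%) moved past it and 535 (7.47%) moved away. The same 40 µM libraries enter the call and the gaps, so these classes are a description with no test.

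**Figure D1:**
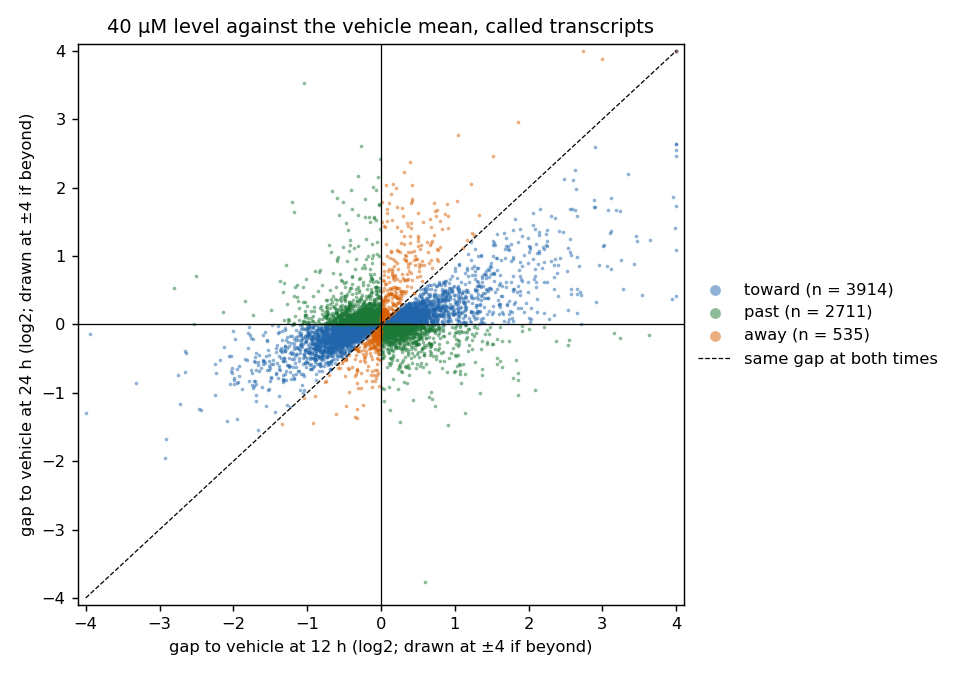
Each point is 1 of the 7160 called and placed transcripts, with its gap to the vehicle mean at 12 h on the horizontal axis and at 24 h on the vertical axis (log2 ratio of mean CPM, n = 5 libraries per mean), coloured by class. The 3914 points of the toward class lie between the horizontal axis and the dashed line of equal gaps, and the 535 of the away class lie beyond the dashed line.

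In the plot of gaps, the cloud is flatter than the line of equal gaps. The 1898 transcripts of the toward class that lay above vehicle had a median gap of 0.45 at 12 h and 0.13 at 24 h. The 2016 that lay below vehicle had a median of -0.50 at 12 h and -0.14 at 24 h. The gap is taken against a separate vehicle mean at each time, and in 97 of the placed transcripts the gap changed in the direction opposite to the fitted fold change. Over both directions the median share of the 12 h gap still present at 24 h was 30.8%, with quartiles of 15.9 and 47.4%. Of the 3707 placed transcripts that rose, 3420 (92.3%) started below the vehicle level, and of the 3453 that fell, 3234 (93.7%) started above it.

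Over all called transcripts, crossing the vehicle level was common and mostly shallow. Of the 2711 transcripts in that class, 1401 (51.7%) ended within 0.1 log2 units of vehicle. A gap of at least 0.5 on the far side was reached by 184 and of at least 1 by 54. When gaps under 0.1 were counted as being at vehicle, 33.5% of the placed transcripts moved toward vehicle, 14.2% past it and 4.19% away, and 48.1% were at the vehicle level at one time or the other. Crossings that began above vehicle (1313) went from a median gap of 0.22 to -0.09, and those that began below (1398) from -0.23 to 0.10. Among changes of at least 2-fold the crossings were deeper. Their median gap went from 1.03 to -0.40 in the 131 that began above and from -0.59 to 0.67 in the 109 that began below.

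Moves away from vehicle were the rarest class and ran mainly upward. Of the 535, 310 lay above vehicle, with a median gap of 0.17 at 12 h and 0.54 at 24 h, and 225 lay below, with -0.09 and -0.28. In 32 of the 310 the fitted change at 40 µM was a fall, and in 31 of the 225 a rise. For these the gap widened against the fitted direction. Among the changes of at least 2-fold, 595 could be placed, of which 317 (53.3%) moved toward vehicle, 240 (40.3%) past it and 38 (6.39%) away. Of those 38, 35 were above vehicle. Their median gap went from 0.28 at 12 h to 1.69 at 24 h, so they were near the vehicle level at the first time and clearly above it at the second.

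Tested transcripts, called or not, were also sorted by their 12 h gap where it was at least 0.25 log2 units, and the median gap was smaller at 24 h in every bin. The 168 transcripts at least 2 log2 units above vehicle at 12 h had a median gap of 2.53 then and 0.999 at 24 h. Those from 1 to 2 units above (604) went from 1.30 to 0.43, and those from 0.5 to 1 above (1239) from 0.67 to 0.20. Below vehicle the 47 transcripts with the widest gaps went from -2.36 to -0.53, those from 1 to 2 units below (471) from -1.24 to -0.43, and those from 0.5 to 1 below (1668) from -0.67 to -0.21. Because transcripts were sorted on the 12 h values, the error of those values widens the 12 h medians and not the 24 h ones. The size of that part was not tested.

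**Figure D2:**
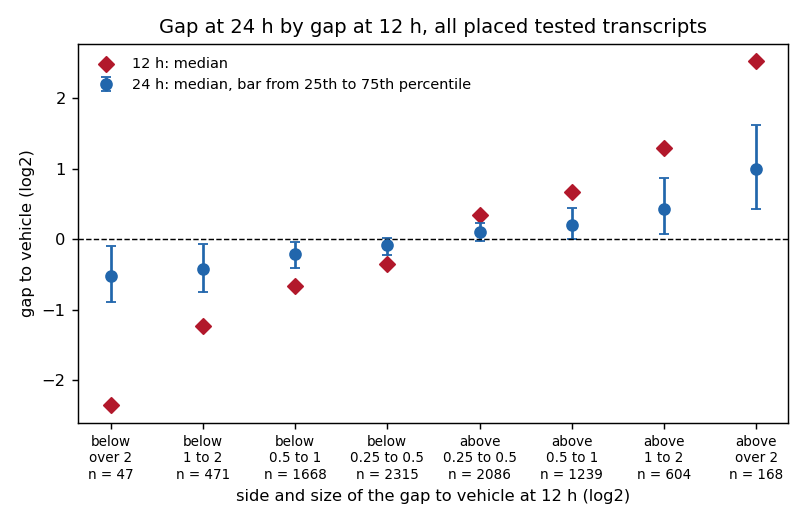
Tested transcripts are sorted by side and size of the gap to vehicle at 12 h (horizontal axis, log2 units, with the number of transcripts), and the vertical axis gives the gap (log2). Diamonds are 12 h medians and circles 24 h medians with bars from the 25th to the 75th percentile, and each circle lies nearer to 0 than its diamond.

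Each of the 10 libraries showed the pattern. Over the 3707 placed transcripts that rose, the median log2 ratio to the vehicle mean was -0.32, -0.39, -0.34, -0.46 and -0.30 in 12 h replicates 1 to 5. In the 24 h replicates it was -0.03, -0.02, -0.01, -0.03 and -0.04. These are signed medians over transcripts on both sides of vehicle at 24 h, where 1673 of the 3707 ended above it, and the lowest 12 h medians came from replicates 4 and 2. Over the 3453 that fell, the medians were 0.25, 0.36, 0.30, 0.39 and 0.30 at 12 h and from 0.01 to 0.03 at 24 h, with replicates 4 and 2 again the farthest from vehicle. For changes of at least 2-fold, the 243 rising transcripts had library medians of -1.11 to -0.88 at 12 h and 0.04 to 0.22 at 24 h. The 352 falling ones had medians of 1.22 to 1.67 at 12 h and 0.10 to 0.22 at 24 h. The transcripts were chosen on these libraries, so the separation of the times is fixed by the choice, while the spread within a time is not.

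**Figure D3:**
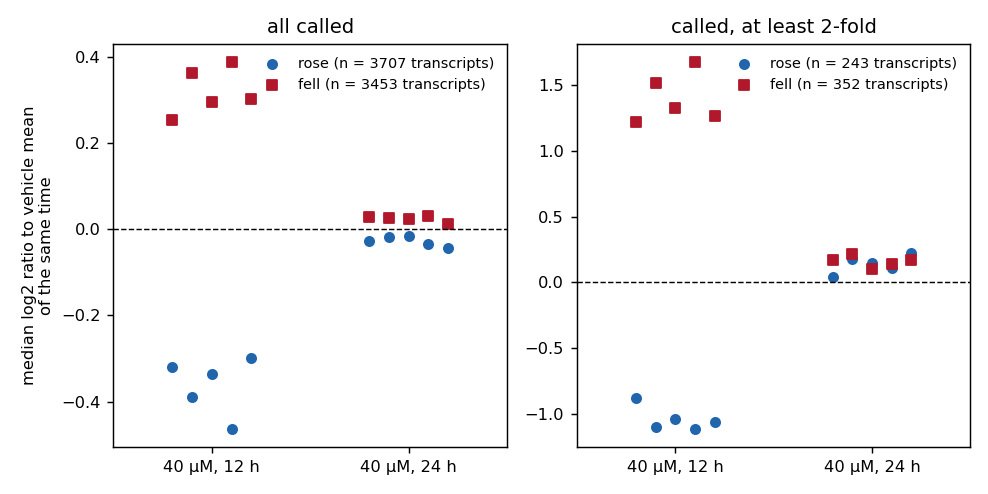
Points are the 10 libraries at 40 µM, and the vertical axis is the median log2 ratio to the vehicle mean of the same time over the transcripts that rose (circles) or fell (squares), for all called transcripts on the left and those changed at least 2-fold on the right. All 24 h points lie near the dashed vehicle line, from -0.04 to 0.03 on the left and from 0.04 to 0.22 on the right.

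The 12 h libraries differed more among themselves than the 24 h libraries along the axis that separated the times. In a principal component analysis of the 10 libraries the first component held 33.0% of the variance. Its 12 h scores were 18.4, 33.6, 22.7, 38.9 and 20.2 in replicates 1 to 5, and its 24 h scores lay between -28.4 and -25.6. On the second component (11.6%) replicate 5 at 12 h had the lowest score, -36.0, the next lowest was -11.7 in replicate 3 at 24 h, and replicate 5 at 24 h had the highest, 21.9. Over 14915 tested transcripts with at least 1 CPM at both times, the median SD of log2 CPM among the 5 libraries was 0.14 at 12 h and 0.11 at 24 h, against 0.11 and 0.10 in vehicle. The biological coefficient of variation fitted by edgeR was 21.1% within the 12 h group and 19.4% within the 24 h group. Leaving out 1 library gave 19.7 to 22.4% and 17.3 to 20.1%, ranges that overlap.

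The 12 h libraries held more kinds of transcripts. At least 1 count was found for 19490 ± 215 transcripts (SD, n = 5) at 12 h and for 19048 ± 139 at 24 h, a difference of -441 (two-sided exact permutation p = 0.0238, 0.0952 after Benjamini-Hochberg adjustment over 4 library measures). With every library thinned to 23464165 counts the difference was -487 (exact permutation p = 0.00794, adjusted 0.0317), and that p is the smallest that 5 against 5 libraries allow. The 12 h libraries ranged from 19148 to 19764 and the 24 h libraries from 18864 to 19101 after thinning, without overlap. The 10 most abundant transcripts held 9.58 ± 0.314% of counts at 12 h and 10.2 ± 1.21% at 24 h (exact permutation p = 0.238), and this difference of 0.664 percentage points was 0.138 without replicate 5 at 24 h.

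How often a change was called followed the level of the transcript. When the tested transcripts were split by mean CPM into 5 bins of equal number, from lowest to highest, 17.8, 33.4, 46.6, 54.8 and 61.9% were called. Changes of at least 2-fold went the other way, from 9.56% of transcripts in the lowest bin to 1.79% in the highest. In the lowest bin 37.5% of calls were higher at 24 h, and in the highest 55.4%. By transcript length, 58.4% of calls were higher at 24 h in the shortest of 5 bins and 47.7% in the longest. Transcripts with whole estimates were called more often (51.7% of 6630) than those with fractional estimates (37.1% of 10155), and their median standard error was 0.08 against 0.12 log2 units. A fit on the whole-estimate transcripts alone had a biological coefficient of variation of 7.68% in place of 20.3% and called 3807 (57.4%).

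The change over time at 40 µM was then set beside the change over the same hours at 30 µM and in vehicle. At 30 µM, 1503 of 16650 transcripts were called (9.03%), 93 of them at least 2-fold, and in vehicle 359 of 16614 (2.16%), 6 at least 2-fold. The vehicle count ranged from 175 to 546 with 1 library left out, lowest without replicate 1 and highest without replicate 2 at 24 h. The 30 µM count was 3131 without replicate 5 at 24 h and between 1006 and 1231 without any other library. The 40 µM count stayed between 6474 and 7352 with any 1 library left out.

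**Figure D4:**
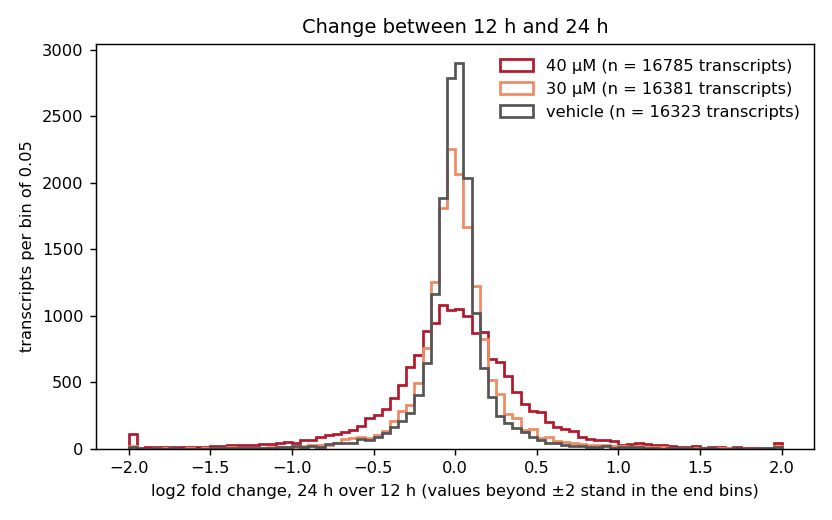
Histograms of the log2 fold change of each transcript, 24 h over 12 h, at 40 µM, at 30 µM and in vehicle (horizontal axis, log2 units; vertical axis, transcripts per bin of 0.05). The 40 µM curve is the widest, with 633 called changes of at least 2-fold against 93 at 30 µM and 6 in vehicle.

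The difference between the groups' changes was tested itself. The change over time at 40 µM differed from that in vehicle in 5261 of 17512 transcripts (30.0%), and from that at 30 µM in 3215 of 17508 (18.4%). Of the 7199 transcripts called at 40 µM, 4749 (66.0%) also differed from the vehicle change and 2992 (41.6%) from the 30 µM change. The same 40 µM libraries chose the 7199 and enter both of these tests, so the shares are a description and are not to be read against the 30.0 and 18.4%. Of the 3177 transcripts called in the test against 30 µM and tested at both doses, 2989 (94.1%) had the larger change at 40 µM, with a median size of 0.41 log2 units against 0.10. In 1186 (37.3%) of them the fitted directions at the 2 doses were opposite. The number called against 30 µM was 4068 without replicate 5 at 24 h of the low dose.

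The transcripts called at 40 µM were followed in the 30 µM libraries, which share no library with them. Of the 7103 that were also tested there, 78.1% changed in the same direction, with a median of 0.09 log2 units in the 40 µM direction against 0.34 at 40 µM itself. Those called at both doses numbered 1233, which is 17.4% of these 7103 and 82.0% of the 30 µM calls, and 1165 of them had the same direction. Of all tested transcripts 9.03% were called at 30 µM and 42.9% at 40 µM. Without replicate 5 at 24 h of the low dose 2131 were called at both doses, which is 29.9% of the 7122 then tested and 68.1% of the 30 µM calls, with 3131 of 16871 called in all. For changes of at least 2-fold, 544 were tested at 30 µM, 86.0% had the same direction, and the median was 0.39 against 1.28 log2 units. In vehicle the median over 7059 transcripts was 0.02 in the 40 µM direction and 60.4% had the same direction.

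The 3 classes were also followed at 30 µM. Of the transcripts that moved away from vehicle at 40 µM, 84.2% changed in the same direction at 30 µM and 29.6% were called there, with a median of 0.13 against 0.28 log2 units at 40 µM. Of those that moved toward vehicle, 75.9% had the same direction and 16.3% were called (9.03% of all tested), with 0.08 against 0.35. For the class that crossed vehicle the shares were 79.9 and 16.5%, with 0.09 against 0.35. Without replicate 5 at 24 h of the low dose, which raised the calls to 3131 of 16871, the shares called were 41.1% in the away class, 28.5% in the toward class and 29.8% in the crossing class. The change at 40 µM differed from that at 30 µM, by the test of the difference, in 47.7% of the toward class, 38.3% of the crossing class and 14.8% of the away class, and in 18.4% of all transcripts tested. It differed from the vehicle change in 65.7, 72.0 and 39.8%, and in 30.0% of all. How the classes differ from each other was not tested, and the 40 µM libraries that define the classes also enter both tests of a difference, as the vehicle libraries do the second.

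Of the transcripts with whole estimates in all 10 libraries, no overlap between the times and a mean of at least 50 counts, 1138 rose and 884 fell. The 10 largest rises among them ran from 1.71 to 2.15 log2 units, and 7 of the 10 passed the vehicle level, 2 moved toward it and 1 moved away. The 10 largest falls ran from -4.48 to -2.45, and 8 of the 10 moved toward vehicle, 1 passed it and 1 could not be placed. The leading pair in each direction is described next. Whole estimates and a lack of overlap between the times were conditions of the choice.

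ENSCPOT00000026955.2 (1794 bases) had the largest rise among these 1138 transcripts. Its level was 1.95, 1.33, 1.89, 1.63 and 1.31 CPM in 12 h replicates 1 to 5 (1.62 ± 0.301, SD, n = 5) and 6.93, 7.11, 6.75, 7.30 and 8.29 CPM at 24 h (7.28 ± 0.602). Every 24 h library lay far above every 12 h library, and the 12 h level was that of vehicle, which stood at 1.63 ± 0.592 CPM at 12 h and 1.37 ± 0.146 at 24 h. The log2 fold change was 2.15 (SE 0.15, edgeR adjusted p = 2.73e-06), and the gap to vehicle went from -0.01 to 2.41. By the sign of that 12 h gap alone, this transcript was placed among those that passed vehicle. It rose at 30 µM too, from 1.98 to 5.02 CPM (1.34, edgeR adjusted p = 0.00548), and in vehicle the change was -0.26 (adjusted p = 0.760). The rise at 40 µM exceeded the vehicle change by 2.40 log2 units (edgeR adjusted p = 6.69e-06) and the 30 µM rise by 0.80 (adjusted p = 0.0518). The latter call was lost when 12 h replicate 4 of the 30 µM group was left out, where the difference was 0.64 (adjusted p = 0.112). It was also lost with a replicate block on title-number position (0.75, edgeR adjusted p = 0.143).

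ENSCPOT00000044478.1 (3556 bases) rose from a level far below vehicle. It was at 60.8, 46.1, 52.4, 40.0 and 65.3 CPM in the 12 h replicates (52.9 ± 10.3) and at 192, 212, 223, 227 and 213 CPM in the 24 h replicates (214 ± 13.6). Vehicle libraries averaged 349 ± 37.1 CPM at 12 h and 479 ± 7.66 at 24 h, so the transcript stayed below vehicle at both times and the gap narrowed from -2.72 to -1.17. The log2 fold change was 2.00 (SE 0.11, edgeR adjusted p = 6.17e-07), against 0.59 at 30 µM (adjusted p = 1.38e-05) and 0.46 in vehicle (adjusted p = 0.00480). The 40 µM rise exceeded the 30 µM rise by 1.40 (edgeR adjusted p = 6.65e-07) and the vehicle rise by 1.54 (adjusted p = 1.27e-07). At 24 h the 2 doses had similar means, 214 CPM at 40 µM and 216 at 30 µM, whereas at 12 h the 30 µM mean was 144 CPM.

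ENSCPOT00000040932.1 (1932 bases) was low in vehicle and fell steeply at 40 µM. Its 12 h libraries held 348, 696, 372, 1026 and 211 CPM (531 ± 329) and its 24 h libraries 36.3, 26.4, 14.5, 22.9 and 45.3 CPM (29.1 ± 12.0). Replicates 4 and 2 were the highest at 12 h, as they were on the first principal component. Vehicle stood at 0.745 ± 0.345 CPM at 12 h and 0.731 ± 0.235 at 24 h, so the gap went from 9.48 to 5.31 log2 units and a 39.8-fold excess over vehicle remained at 24 h. The log2 fold change over time was -4.21 (SE 0.47, edgeR adjusted p = 6.25e-05), and at 30 µM, where the mean went from 127 to 14.8 CPM, it was -3.08 (adjusted p = 0.000748). The 40 µM fall differed from the vehicle change by -4.20 (edgeR adjusted p = 0.0253) and from the 30 µM fall by -1.14, which did not pass (adjusted p = 0.240).

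ENSCPOT00000038137.1 (384 bases) had the largest fall among the 884 falling transcripts that met the same 3 conditions. Its level was 2.61, 5.02, 3.33, 7.59 and 2.79 CPM in the 12 h replicates (4.27 ± 2.09) and 0.163, 0.323, 0.0350, 0.112 and 0.325 CPM in the 24 h replicates (0.192 ± 0.129), where it rests on 1 to 8 counts per library. Replicates 4 and 2 were again the highest at 12 h. The log2 fold change was -4.48 (SE 0.52, edgeR adjusted p = 8.32e-05). All 10 vehicle libraries held at most 3 counts, so no gap to vehicle was computed. At 30 µM the mean went from 0.610 to 0.129 CPM (-2.15, edgeR adjusted p = 0.0830). The 40 µM fall was steeper than the 30 µM fall by -2.34 log2 units (edgeR adjusted p = 0.0791). That call was lost in 12 of 20 fits with a library removed (edgeR adjusted p from 0.0200 to 0.260), on log2(TPM + 0.1) (limma adjusted p = 0.224) and without a filter on low counts (edgeR adjusted p = 0.102). A replicate block on title-number position lost it as well (edgeR adjusted p = 0.154). The 40 µM fall differed from the vehicle change by -3.47 log2 units (SE 1.52), which did not pass (edgeR adjusted p = 0.109). The vehicle test passed in DESeq2 (adjusted p = 0.0412), on log2(TPM + 0.1) (limma adjusted p = 0.00309) and on log2(TPM + 1) (limma adjusted p = 2.62e-06). It also passed in 8 of 20 edgeR fits with a library removed. Its vehicle side rests on at most 3 counts per library, too few for a test in vehicle alone.

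**Figure D5:**
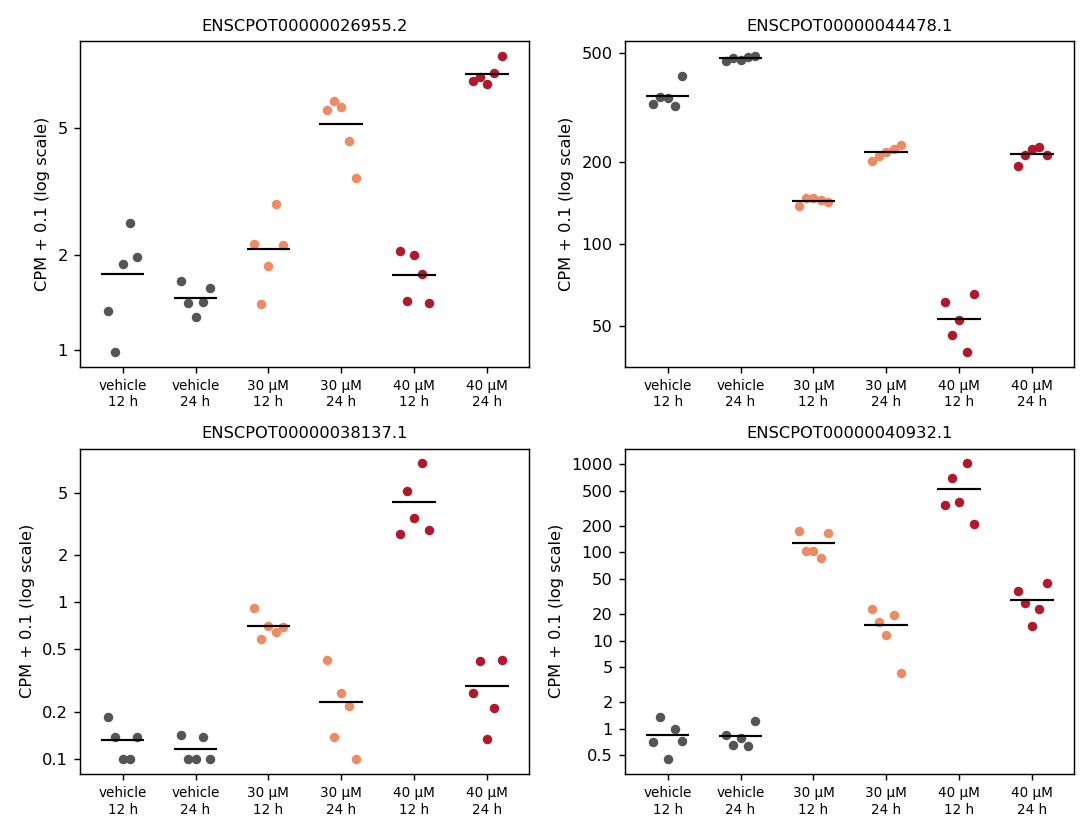
Points are single libraries and bars the means of 5 for the 4 named transcripts, in vehicle, at 30 µM and at 40 µM, at 12 h and 24 h (vertical axis, CPM + 0.1 on a log scale). In each panel the 40 µM points at 12 h and 24 h do not overlap, and for ENSCPOT00000040932.1 the 24 h points at 40 µM (14.5 to 45.3 CPM) stay above the vehicle means of 0.745 and 0.731 CPM.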

How the data were processed

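Poly-A-enriched stranded libraries had been sequenced as paired reads. The authors assigned reads to the Ensembl transcriptome of the guinea pig with Kallisto (0.42.4 per the submitters' processing notes; the Ensembl release is not given in the sources used here). Each deposited table gives estimated counts, which need not be whole and are not normalised, and the deposited TPM values are scaled by effective length to a fixed total. Sleuth, the authors' test, was not used here.

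Groups came from the agent and time labels. Estimated counts were rounded, and each transcript was tested in edgeR 4.0.16 (R 4.3.3) by its quasi-likelihood test, with TMM factors and the filterByExpr filter, on the 10 libraries compared. Interaction contrasts on 20 libraries tested whether changes differed. A call needed an adjusted p (Benjamini-Hochberg) under 0.1. Each standard error is the log2 fold change divided by the root of its F statistic. CPM used TMM factors over the 30 libraries. Exact permutation tests, two-sided, compared the library measures. An estimate counted as whole if within 0.001 of a whole number in the 10 libraries. Chi-square per degree of freedom between 40 µM replicates was 7.74 or more, so none of these pairs was a duplicate, and other groups were not checked.

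Named transcripts were the 2 largest rises and 2 largest falls among called ones with a mean of at least 50 counts, whole estimates in all 10 libraries and no overlap between the times. The members, rules and alternatives were chosen with earlier results of these data known. Gene lists and cell markers had been planned and were not run, because identifiers carry no gene names. Alternatives were RLE and upper quartile factors, DESeq2 1.42.0, limma 3.58.1 on log2(TPM + 1), which shrinks changes of low transcripts, and on log2(TPM + 0.1), no filter, all 30 libraries, whole estimates only, a block on title-number position, an adjusted p under 0.05, other vehicle lines, and leaving out each library. The scripts were tested on simulated data.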

Additional observations from a re-analysis of the deposited data

Results flagged for a closer look

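Among 24 sets of 5 library values examined, 3 held a value far from the other 4, where chance gives about 1 in 20, or 1.2 sets. All 3 belong to replicate 5 of the 40 µM group at 24 h. They are computed from the same counts of that library, so they are not separate events to set against the 1.2. Its 10 most abundant transcripts held 12.4% of counts, against 9.48 to 10.2% in the other 4 libraries. The share of counts in fractional estimates was 48.0%, against 48.8 to 49.1%. The effective number of transcripts, a measure of how evenly counts are spread, was 2904 against 3154 to 3243. Without this library the difference between the times in the share of fractional estimates went from -0.40 to -0.20 percentage points and that in the effective number from -86.9 to -29.4.

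By a test of the difference itself, the change between 12 h and 24 h at 40 µM differed from the vehicle change in 5261 transcripts and from the 30 µM change in 3215. Of the 5261 edgeR calls 52.6% were higher, and of the limma calls 63.3% of 5528 were higher on log2(TPM + 1) and 64.2% of 5429 on log2(TPM + 0.1). The median difference over all tested transcripts was also shifted upward in these limma fits, 0.041 and 0.051, against -0.0020 in edgeR. What this shift adds to the share of higher calls was not tested. Against vehicle the difference was 2.40 log2 units for ENSCPOT00000026955.2, 1.54 for ENSCPOT00000044478.1 and -4.20 for ENSCPOT00000040932.1. Against 30 µM it was 0.80 for ENSCPOT00000026955.2, 1.40 for ENSCPOT00000044478.1 and -2.34 for ENSCPOT00000038137.1.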

How the results depend on the processing

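The 40 µM count of 7199 lay between 7019 and 7746 under other scalings, filters, tools and the fit of all 30 libraries, and between 6474 and 7352 with 1 library left out, with 49.2 to 53.1% of calls higher. It was 6012 at an adjusted p under 0.05. With whole estimates only, where fewer transcripts are tested, it was 3807 of 6630, and the tests against the vehicle and 30 µM changes gave 2882 and 1873. A replicate block on title-number position gave 4591, with 54.8% higher, and lost the calls against the 30 µM change of ENSCPOT00000026955.2 (0.75, edgeR adjusted p = 0.143) and ENSCPOT00000038137.1 (-2.36, edgeR adjusted p = 0.154). Same-position 40 µM libraries did not deviate together (4 pairs, r from -0.04 to 0.05, against -0.08 to 0.09 in 21 other pairs), so the numbers were not taken to pair these libraries, and other groups were not checked. With 1 library left out, the test against the vehicle change gave 4757 to 5614 calls, that against the 30 µM change 2689 to 4068, the 30 µM count 1006 to 3131 (highest without its replicate 5 at 24 h) and the vehicle count of 359 from 175 to 546. The vehicle count was 546 without its replicate 2 at 24 h, 177 without replicate 4 at 12 h and 175, 182, 179 and 179 without replicates 1, 3, 4 and 5 at 24 h. The share of transcripts moving toward vehicle, 54.7%, was 52.7% against all 10 vehicle libraries, 53.3% for changes of at least 2-fold, 33.5% with gaps under 0.1 counted as at vehicle, 56.0% for whole estimates (chosen after seeing the data, as were the split by whole estimates and the follow-up without 1 library) and 53.1 to 55.9% with 1 library left out. The difference in detected transcripts ranged from -522 to -373 in those fits, in the share of the 10 most abundant transcripts from 0.138 to 0.858, in the effective number from -114 to -29.4 and in the fractional share from -0.49 to -0.20 percentage points. The last passed an exact permutation p of 0.05 without replicate 1 at 12 h or replicate 2 at 24 h (exact permutation p = 0.0476 and 0.0317). The coefficient of variation ranged from 19.7 to 22.4% at 12 h and 17.3 to 20.1% at 24 h. Transcripts with fractional estimates had larger standard errors and also a lower median level (13.8 against 19.9 CPM), and what each contributes was not tested.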
